A study of Homo sapiens and Mus musculus with 18 samples.

Results

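Mesothelial surface marker genes are 9 human genes, chosen as a list of names: UPK3B, UPK1B, MSLN, LRRN4, MUC16, CALB2, PDPN, ITLN1 and GPM6A. This list and those of related genes below were chosen with earlier results of these data known. Shares of listed genes called, set beside all genes, are therefore descriptions only. The 9 genes were found by Ensembl gene ID in 2 sets of RNA-seq counts. All 9 were among the 63677 gene IDs of the one-library files and among the 56299 IDs of the human table, and all 9 passed the filter on low counts in each set. Of the 18 samples of the series, 11 were human expression libraries and are described here. The 4 mouse libraries and 3 chromatin libraries were not analysed here.

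All human cells came from WA09, an embryonic stem cell line that was first turned into splanchnic mesoderm with WNT3A and BMP4 for 4 days. MesoT cells, which the study calls the mesenchymal form of mesothelium, were then kept in WNT3A at 25 ng/ml, BMP4 at 50 ng/ml and retinoic acid at 4 µM until day 18 or day 22. MesoT FCS cells were MesoT taken to passage 4 in medium with 10% serum and FGF2 at 8 ng/ml. Mesothelium-like cells (MLC), which the study calls the epithelial form, came from replated splanchnic mesoderm and had 18 days in all. Their medium held SB431542, an inhibitor of TGF-beta type I receptors, at 20 µM with retinoic acid at 4 µM, and no FGF2 or activin A. MesoT-derived MLC were MesoT cells replated in the MLC medium. Smooth muscle came from splanchnic mesoderm left in culture. Each group had 2 libraries, except smooth muscle with 1. Every group is from 1 stem cell line, and the labels do not say that replicates were separate cultures, so p-values measure only the spread between these libraries, which may be technical.

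Mesothelium is the thin epithelial sheet that lines the body cavities and covers the heart, lungs, liver and gut. It keeps features of epithelium and of mesenchyme at once, and during development its cells can lose their epithelial form and give rise to fibroblasts and smooth muscle. Its surface carries mucins and glycoproteins that keep opposing organs from sticking, and several of these are used to recognise mesothelial cells and mesothelioma.

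The list is mixed in protein type. UPK3B and UPK1B belong to the uroplakins, membrane proteins first known from the bladder lining, and UPK1B is a tetraspanin. MSLN (mesothelin) is a lipid-anchored surface glycoprotein, and MUC16 is the large membrane mucin that binds it. LRRN4 is a transmembrane protein with leucine-rich repeats. PDPN (podoplanin) is a mucin-like membrane glycoprotein that lymphatic endothelium, podocytes and basal keratinocytes also carry. GPM6A is a membrane glycoprotein of the proteolipid family, best known from neurons. CALB2 (calretinin) is a calcium-binding protein of the cytosol and ITLN1 (omentin) a secreted lectin, so 2 of the 9 are mesothelial markers but not surface membrane proteins.

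RefSeq promoter sequences were matched by symbol for 6 of the 9 genes, with 12 transcription starts between them. Those of the 3 genes that fell in MesoT FCS, given with that comparison, are printed here so that their letters can be set beside it. Each is the 250 bases before the gene's listed start, 5′ to 3′ on the gene's strand, in build GRCh38.p14: UPK3B at chr7:76510302-76510551 on the plus strand, the first of 3 PDPN starts at chr1:13583507-13583756 on the plus strand, and ITLN1 at chr1:160885181-160885430 on the minus strand. Capitals mark matches to any of 5 motifs, searched on both strands.
UPK3B: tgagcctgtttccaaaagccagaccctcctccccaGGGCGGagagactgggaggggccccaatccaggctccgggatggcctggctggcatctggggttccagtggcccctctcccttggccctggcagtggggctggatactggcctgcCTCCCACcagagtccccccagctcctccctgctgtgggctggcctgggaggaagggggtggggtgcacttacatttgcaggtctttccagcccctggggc
PDPN: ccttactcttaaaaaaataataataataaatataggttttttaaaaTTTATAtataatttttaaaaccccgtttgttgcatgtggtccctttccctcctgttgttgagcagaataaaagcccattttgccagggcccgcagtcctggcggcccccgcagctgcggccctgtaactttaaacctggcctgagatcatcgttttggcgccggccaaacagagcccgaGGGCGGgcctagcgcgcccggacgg
ITLN1: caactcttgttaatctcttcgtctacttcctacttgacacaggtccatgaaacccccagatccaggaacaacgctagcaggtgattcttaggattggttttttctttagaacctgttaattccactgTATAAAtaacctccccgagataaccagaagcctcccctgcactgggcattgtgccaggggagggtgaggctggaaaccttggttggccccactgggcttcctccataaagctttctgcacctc

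The motifs were the TATA box (TATAAA), found in 10.7% of the 35116 promoters of the table, the GC box (GGGCGG), found in 42.6%, the motif shared by WT1 and EGR factors (GTGGGNG), found in 30.6%, the TEAD motif (GGAATG), found in 11.9%, and the AP-1 motif (TGANTCA), found in 6.57%. The UPK3B promoter held a GC box 215 to 210 bases before the start and, on the other strand, a match to the WT1 and EGR motif 100 to 94 bases before it. It had a GC content of 67.2%, beside 48.8% for the PDPN stretch and 49.2% for ITLN1, against a median of 58.0% over the table. The PDPN stretch held a GC box 25 to 20 bases before the start and a TATA match on the other strand, 204 to 199 bases before it. The other PDPN starts differed from it. The stretch before the second had a GC content of 63.2%, with a GC box and no TATA match. That before the third had 46.0%, with a TATA match and no GC box. The ITLN1 promoter held a TATA match 123 to 118 bases before the start. No one motif of the 5 was in all 3 stretches. A match here is a description of letters, not a bound site.

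Library totals were 21148477 to 31435480 counts, except for MLC with 70679258 and 65709545. Depth, sequencer and read length may therefore follow the MLC group, since 2 sequencers and 2 read lengths were used with no statement per sample, and these cannot be told apart from the MLC condition. Levels are given as CPM, counts scaled to a common library size, with TMM-scaled sizes. The 2 sets were normalised apart, so no level is compared between them, except at MesoT day 18. Fits with the human table's day 18 counts mix the 2 sets and are given only as alternatives. Since the files give no gene lengths, no level is compared between genes. The library labelled smooth muscle stood apart: 8 markers of basal epidermis, led by KRT5 and KRT14, summed to 2578 CPM there, against 1.40 to 12.4 CPM in the other one-library files. Its 8 smooth muscle markers summed to 1192 CPM, within the range of 284 to 7406 CPM over the MesoT day 18 and MesoT FCS libraries. WT1, the transcription factor that marks mesothelium, had 1 count in that library. Of 11 mesothelium markers (the 9 genes with WT1 and BNC1), 9 to 11 had counts in every human library.

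**Figure D1:**
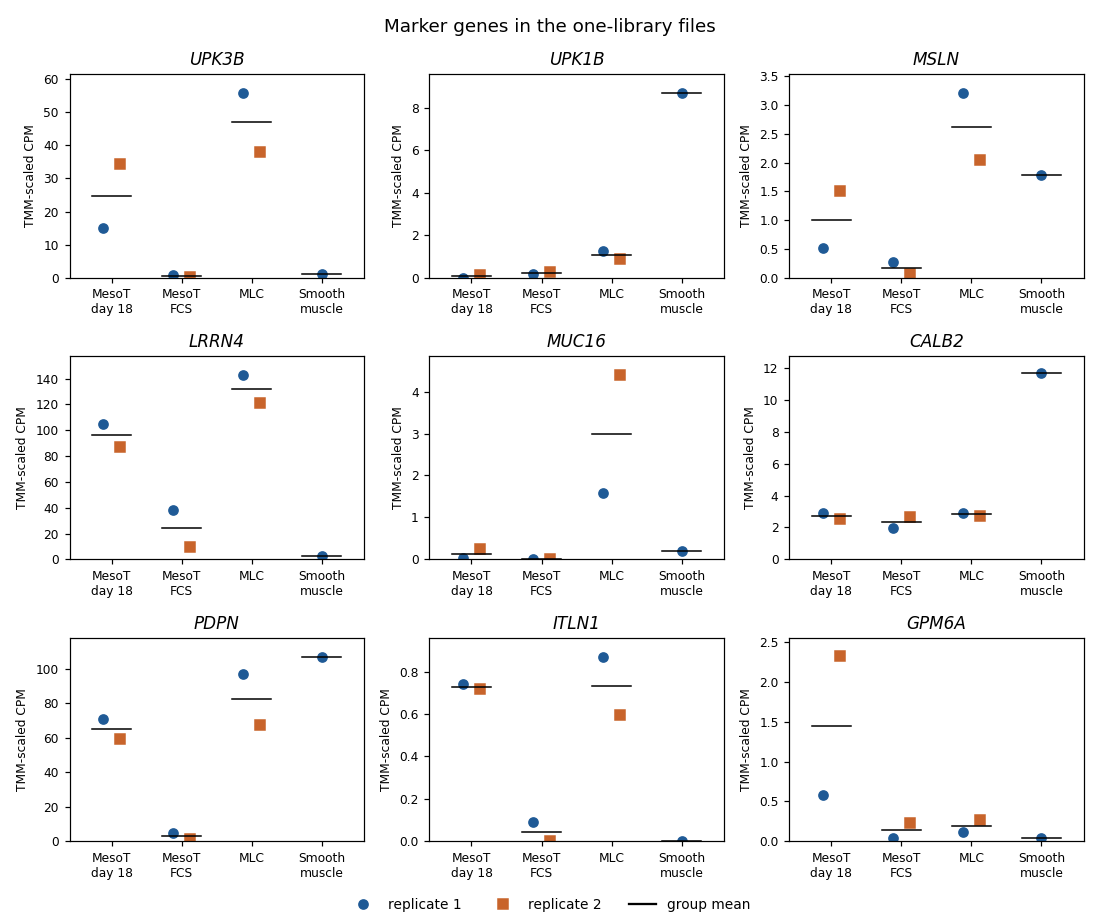
TMM-scaled CPM of the 9 genes (y axes, linear, 1 panel per gene) in MesoT day 18, MesoT FCS, MLC and the smooth muscle library (x axes), with points for libraries and bars for group means. UPK3B, PDPN and ITLN1 lie near 0 in MesoT FCS and higher at day 18 and in MLC, while UPK1B and CALB2 have their highest value in the smooth muscle library.

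The same labelled MesoT day 18 samples appeared in both sets with unequal counts, which matters most for UPK1B. The human table gave it 108 and 141 counts, the one-library files 0 and 4. MUC16 had 1 and 17 counts in the human table, beside 1 and 7. The other 7 genes lay close: UPK3B, for example, had 524 and 1158 counts in the human table, beside 470 and 1007. Of the 8 members with at least 10 counts on average in either set, 7 (87.5%) had CPM within 0.5 log2 between the sets in both replicates, beside 11261 of 22110 genes (50.9%) over the whole table. UPK1B was the member outside that limit, and at under 10 counts MUC16 was not judged. Results on UPK1B that use day 18 are therefore given with both counts. MLC, MesoT FCS and smooth muscle are only in the one-library files. Whether UPK1B was counted unequally there too could not be checked.

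**Figure D2:**
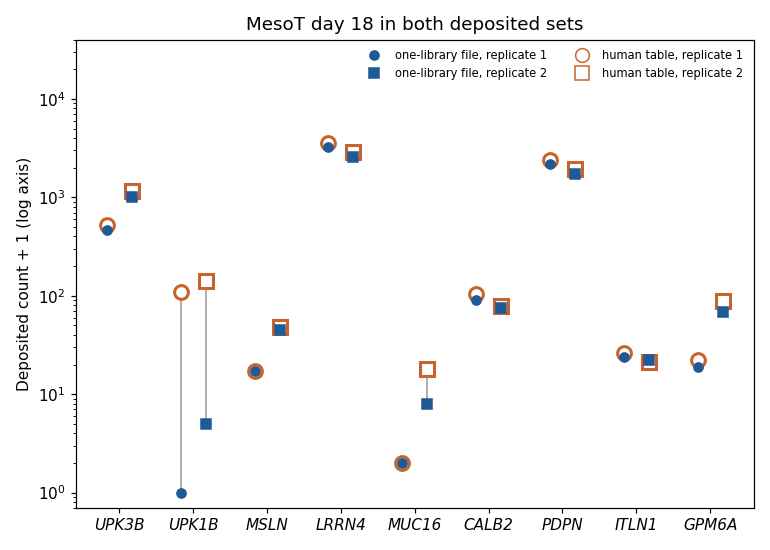
Deposited count plus 1 (y axis, log scale) of each of the 9 genes (x axis) at MesoT day 18, with filled symbols for the one-library files, open symbols for the human table and shapes for replicates; grey lines join the same labelled sample. The symbols lie almost on top of each other for 7 genes and far apart for UPK1B.

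The comparison of MLC with MesoT day 18 sets the epithelial form beside the mesenchymal one. The 2 genes that passed were UPK1B and MUC16, both higher in MLC, and the other 7 did not pass. MUC16, the mucin partner of mesothelin, had 1.57 and 4.40 CPM in MLC and 0.0322 and 0.239 CPM at day 18, so the groups did not overlap. It rose by 4.44 ± 1.04 on the log2 scale (SE, edgeR quasi-likelihood test, adjusted p = 0.0376), from 8 counts in all at day 18. UPK1B had 1.26 and 0.869 CPM in MLC and 0 and 0.137 CPM at day 18, again with no overlap. Its log2 fold change was 3.93 ± 0.95 (edgeR, adjusted p = 0.0320). Within the one-library files this value ran from 3.02 to 8.42 with 1 library left out. With the human table's day 18 counts it turned, to -1.76. That fit sets day 18 counts of one set beside MLC counts of the other. It therefore cannot tell a difference between the cells from the unequal counts of UPK1B described above.

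The 2 of 9 members called compare with 24.6% of all 23049 genes tested. Among all genes 7.83% were called higher and 16.8% lower. Neither call held without MLC replicate 1 or without MLC replicate 2, fits in which 1720 and 1714 genes passed in place of 5666. MUC16 also missed the threshold without MesoT day 18 replicate 1 and with the human table's day 18 counts, and UPK1B in 2 other alternatives, among them the fit of only the MLC and day 18 libraries.

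The remaining members differed little or widely between replicates. UPK3B had 55.9 and 38.1 CPM in MLC and 15.1 and 34.4 CPM at day 18, a log2 difference of 0.92 ± 0.63 (edgeR, adjusted p = 0.331). MSLN had 3.21 and 2.04 CPM in MLC and 0.516 and 1.50 CPM at day 18. LRRN4 had 143 and 121 CPM in MLC and 105 and 87.3 CPM at day 18. For these 3 genes both MLC libraries lay above both day 18 libraries, and none passed the test. PDPN had 96.7 and 67.6 CPM in MLC and 70.6 and 59.2 CPM at day 18, CALB2 2.91 and 2.73 CPM against 2.90 and 2.53 CPM, and ITLN1 0.872 and 0.598 CPM against 0.741 and 0.718 CPM. The groups overlapped for these 3, and their log2 fold changes were 0.34, 0.06 and 0.01. GPM6A was the one member lower in MLC, with 0.119 and 0.271 CPM against 0.580 and 2.32 CPM, and its log2 fold change of -2.88 ± 0.95 did not pass (edgeR, adjusted p = 0.0764). It passed in 4 of 12 alternatives, where adjusted p ran from 0.0326 to 0.342, and one of these left out MesoT day 18 replicate 1. In all, 5 members lay wholly higher and 1 wholly lower in MLC, where 34.2% and 33.9% of all genes did. The members' median log2 fold change was 0.46, against -0.03 over all genes.

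Other genes of the same families and of mesothelium split in direction. Of 15 tested family relatives, 4 passed higher and 3 lower in MLC. MUC13, another membrane mucin, had 4.47 and 2.76 CPM in MLC and no count at day 18, which puts it at least 73.3-fold higher against a floor of 3 counts over the group. MUC4, also a membrane mucin, rose by 4.30 ± 0.51 log2 (edgeR, adjusted p = 0.00554). UPK1A, the tetraspanin closest to UPK1B, fell by 3.92 ± 0.49 log2 (edgeR, adjusted p = 0.00373). CALB1, the calcium-binding relative of CALB2, had 2 counts in MLC and 207 at day 18, a ratio of 0.00399 (95% exact counting interval 0.000480 to 0.0146). Of 21 other mesothelial genes tested, 7 passed higher and 2 lower. They included WT1, higher by 2.34 ± 0.39 log2, PKHD1L1, a large membrane protein, by 3.32 ± 0.37, EZR, which ties the membrane to actin, by 1.67 ± 0.20, and CLDN15, a tight junction protein, by 1.91 ± 0.29. The 2 lower were ALDH1A2, by 2.73 ± 0.62 log2, and CDH2, by 2.31 ± 0.55 log2 (edgeR, adjusted p = 0.0266 and 0.0315). WT1 and UPK1A lost their call without MLC replicate 1 (edgeR, adjusted p = 0.0685 and 0.0512), and CLDN15 and MUC4 without MLC replicate 2 (0.0665 and 0.0571). Markers of gut epithelium, a tissue that also makes ITLN1 and MUC13, summed to 29.9 and 16.8 CPM in MLC and to 8.67 and 12.2 CPM at day 18; their part in these results was not tested.

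The next comparison sets MesoT grown on in serum beside MesoT at day 18. In MesoT FCS, 3 of the 9 members fell and none of the other 6 passed. UPK3B had 0.714 and 0.0558 CPM in MesoT FCS and 15.1 and 34.4 CPM at day 18. Its level fell by 5.91 ± 0.86 log2, which is 60.3-fold (edgeR, adjusted p = 0.00876). PDPN had 4.78 and 1.01 CPM against 70.6 and 59.2 CPM, and fell by 4.46 ± 0.67 log2, or 22.0-fold (edgeR, adjusted p = 0.00926). Each of these pairs of groups stood far apart, by more than the gaps between replicates. ITLN1 had 0.0893 and 0 CPM against 0.741 and 0.718 CPM. With 2 counts in all in MesoT FCS, its ratio was 0.0680 (95% exact counting interval 0.00799 to 0.261; edgeR, adjusted p = 0.0344). In a bulk culture, fewer marker-positive cells and less RNA per cell cannot be told apart.

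Of all genes, 27.3% were called here in either direction, 13.0% higher and 14.4% lower, beside 3 of 9 members lower. UPK3B and PDPN kept their call in each of the 12 alternatives run. ITLN1 lost it without MesoT FCS replicate 2, without MesoT day 18 replicate 2 and when only MesoT FCS and day 18 were fitted. Without MesoT day 18 replicate 1, the log2 fold changes of MSLN and GPM6A were -3.16 and -4.20, beside -2.55 and -3.47 in the main fit.

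LRRN4 and 3 other surface genes were lower in every MesoT FCS library without passing. LRRN4 had 38.0 and 9.72 CPM in MesoT FCS and 105 and 87.3 CPM at day 18. Its log2 fold change was -2.00 ± 0.59 (edgeR, adjusted p = 0.0512), just outside the threshold. It passed in 9 of 12 alternatives, where adjusted p ran from 0.00364 to 0.0912. MSLN had 0.268 and 0.0558 CPM against 0.516 and 1.50 CPM (log2 fold change -2.55 ± 0.87; edgeR, adjusted p = 0.0761). GPM6A had 0.0447 and 0.223 CPM against 0.580 and 2.32 CPM (-3.47 ± 1.11 log2; edgeR, adjusted p = 0.0640). MSLN passed in 3 of 12 alternatives, with adjusted p from 0.0319 to 0.232, and GPM6A in 5 of 12, from 0.0264 to 0.219. MUC16 had no count in either MesoT FCS library, which puts it at least 1.78-fold lower than day 18, itself at 8 counts. CALB2 had 1.96 and 2.68 CPM against 2.90 and 2.53 CPM, so the groups overlapped for this cytosolic marker. UPK1B had 0.179 and 0.279 CPM against 0 and 0.137 CPM, which is 1.71 ± 1.10 log2 higher (edgeR, adjusted p = 0.275). With the human table's day 18 counts the value was -4.00. That fit again mixes the 2 sets, so it cannot tell a difference between the cells from the unequal counts. Without MesoT day 18 replicate 2 the log2 fold change of UPK1B was 6.20, as the lone day 18 library then had no count.

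In all, 7 members lay wholly lower and 1 wholly higher in MesoT FCS, where 37.8% and 30.5% of all genes did. The members' median log2 fold change was -3.47, or -2.55 with MUC16 at its bound, against -0.16 over all genes. Replicates of MesoT FCS differed widely: UPK3B was 12.8-fold, PDPN 4.75-fold, LRRN4 3.92-fold and MSLN 4.80-fold higher in replicate 1. UPK3B and MSLN had only 17 and 7 counts in all in MesoT FCS, so their folds between replicates are uncertain. The summed smooth muscle markers were also higher in replicate 1, at 7406 CPM, than in replicate 2, at 1791 CPM, beside 1673 and 284 CPM at day 18. What they have to do with the markers' lower levels was not tested.

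Of 15 tested family relatives, 6 fell and 1 rose in MesoT FCS. Among them LRRN1 fell by 3.37 ± 0.26 log2 and LRRN2 fell by 5.33 ± 0.63 log2 (edgeR, adjusted p = 0.00263 and 0.00584). CALB1 had 2 counts against 207, a ratio of 0.0145 (95% exact counting interval 0.00174 to 0.0529), and lost its call without either MesoT FCS replicate. MUC1, a membrane mucin of many epithelia, rose by 2.32 ± 0.34 log2 (edgeR, adjusted p = 0.00901). Of 21 other mesothelial genes, 7 fell and 1 rose. ALDH1A2, a retinoic acid synthesis enzyme, fell by 7.35 ± 0.83 log2. PKHD1L1 fell by 4.86 ± 0.49 log2. CRB2, an apical polarity protein, fell by 4.21 ± 0.56 log2, and WT1 fell by 3.00 ± 0.41 log2. KRT19, an epithelial keratin, was the one that rose, by 2.28 ± 0.30 log2 (edgeR, adjusted p = 0.00738).

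Set against each other, MLC and MesoT FCS differed in 6 of the 9 members, all higher in MLC. UPK3B was higher by 6.84 ± 0.88 log2, or 114-fold (edgeR, adjusted p = 0.00218), and PDPN by 4.80 ± 0.68 log2, or 27.9-fold (edgeR, adjusted p = 0.00296). MSLN rose by 3.93 ± 0.87 log2 (edgeR, adjusted p = 0.0131) and LRRN4 by 2.47 ± 0.60 log2 (edgeR, adjusted p = 0.0179). For MUC16 the fold was at least 39.4 against a floor of 3 counts over MesoT FCS. For ITLN1 the ratio was 14.9 (95% exact counting interval 4.03 to 125), from 108 counts against 2. No library of one group reached into the other for these 6 genes. UPK1B also lay wholly higher in MLC but did not pass (2.22 ± 0.85 log2; edgeR, adjusted p = 0.0728), though it did in 3 of 11 alternatives. Its counts in both groups could not be checked against the human table. CALB2 lay wholly higher in MLC by a log2 difference of 0.28 ± 0.32, and GPM6A overlapped, so neither separated these groups by more than its error.

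Of all genes tested, 48.9% were called in this comparison, 22.6% higher in MLC and 26.3% lower. Wholly higher in MLC lay 8 of the 9 members, beside 42.1% of all genes, with 40.2% wholly lower. The members' median was 3.83, against 0.00 over all genes. Only UPK3B and PDPN among the 6 kept their call in all 11 alternatives. MSLN lost it without MLC replicate 1 or MesoT FCS replicate 2, LRRN4 without either MLC replicate, MUC16 without MLC replicate 2, and ITLN1 without either MLC replicate or MesoT FCS replicate 2. This comparison shares its libraries with the 2 above, so the 3 are not independent of each other.

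Of the relatives, 5 passed higher and 1 lower in MLC. LRRN1 rose by 4.60 ± 0.27 and LRRN2 by 5.90 ± 0.64 log2 (edgeR, adjusted p = 0.000244 and 0.00129). MUC4 was at least 66.8-fold higher, and MUC13 had a ratio of 49.0 (95% exact counting interval 16.7 to 238). Of the other mesothelial genes 10 passed higher and 2 lower, the former with PKHD1L1 at 8.18 ± 0.52, CRB2 at 7.24 ± 0.63, WT1 at 5.34 ± 0.45 and CLDN15 at 2.43 ± 0.29 log2.

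**Figure D3:**
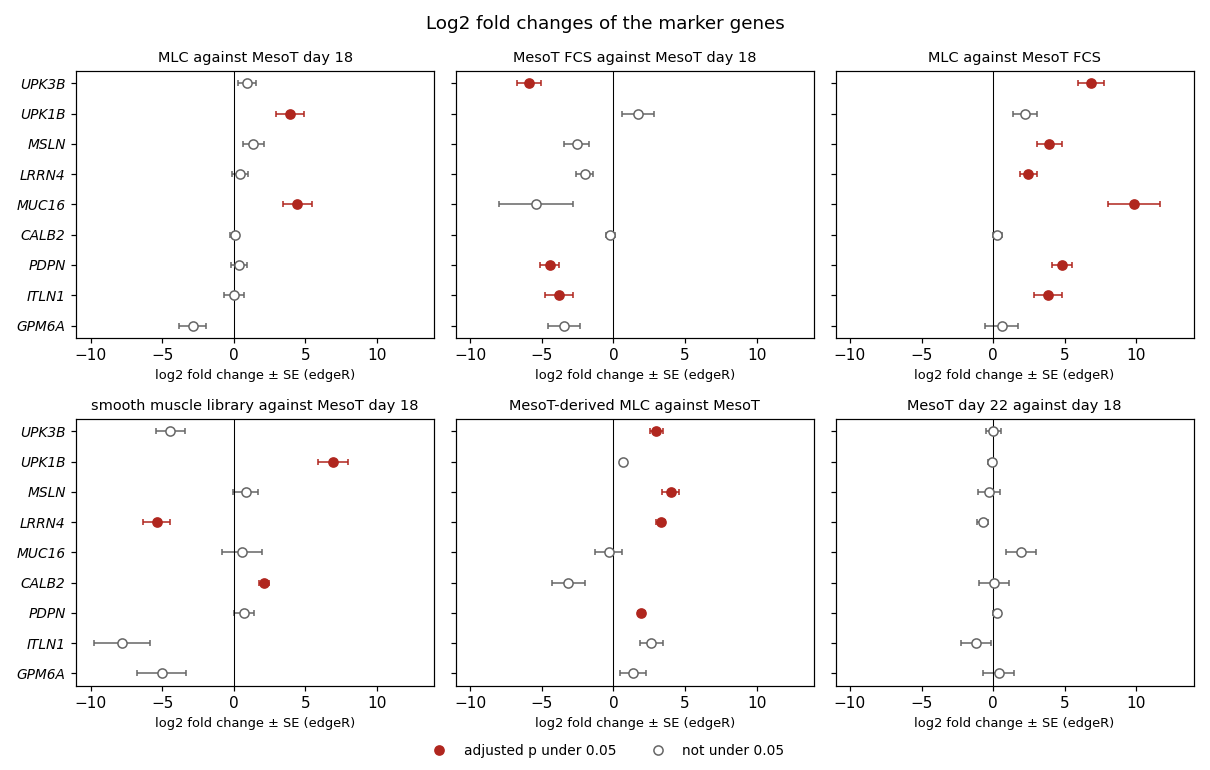
Log2 fold change ± SE from edgeR (x axis) of the 9 genes (y axis) in the 6 comparisons, with filled points for adjusted p under 0.05. The filled points lie to the left of 0 for MesoT FCS against day 18 and to the right for MLC against MesoT FCS and for MesoT-derived MLC; the points of MUC16 in both MesoT FCS panels and of ITLN1 in the smooth muscle panel rest on groups with no count and are no bounds.

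The library labelled smooth muscle served as the comparison cell type, and carried some mesothelial markers and lacked others. LRRN4 had 2.28 CPM there, against 105 and 87.3 CPM at MesoT day 18, and fell by 5.39 ± 0.95 log2 (edgeR, adjusted p = 0.0308). UPK3B had 1.14 CPM against 15.1 and 34.4 CPM, a log2 fold change of -4.44 ± 1.03 that missed the threshold (edgeR, adjusted p = 0.0532). It passed in 4 of 8 alternatives, where adjusted p ran from 3.82e-05 to 0.138. ITLN1 had no count and GPM6A 1 count. That puts ITLN1 at least 5.98-fold lower and gives GPM6A a ratio of 0.0285 (95% exact counting interval 0.000714 to 0.163). Neither passed (edgeR, adjusted p = 0.0619 and 0.114), but ITLN1 did in 4 of 8 alternatives and GPM6A in 2. WT1, with 1 count against 2156, had a ratio of 0.00114 (interval 2.88e-05 to 0.00635).

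By contrast, CALB2 had 11.7 CPM in that library against 2.90 and 2.53 CPM, and rose by 2.10 ± 0.37 log2 (edgeR, adjusted p = 0.0304). UPK1B had 8.71 CPM, the highest of the 7 one-library files, and stood 6.96 ± 1.04 log2 above day 18 (edgeR, adjusted p = 0.0231). With the human table's day 18 counts, in a fit that mixes the 2 sets, that value was 1.25 and no longer passed. PDPN had 107 CPM, also above the other 6 libraries, and MSLN 1.79 CPM, between the day 18 and MLC values, neither past the threshold. MUC16 had 0.2035 CPM and overlapped with day 18. PDPN and the uroplakins are also made by stratified and bladder epithelium. Basal epidermis markers in this library are given above. Its 6 urothelial markers summed to 189 CPM, against 10.7 to 128 CPM in the other one-library files. Most of the 189 CPM came from GATA3 and PPARG: UPK2, UPK1A and UPK3A had 10.6, 5.17 and 0.407 CPM, and KRT20 was at 0. The part of these epidermal and urothelial markers in the CALB2, PDPN and UPK1B values was not tested.

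In this comparison 8.67% of all genes were called, 5.08% higher and 3.58% lower, beside 3 of 9 members, 2 higher and 1 lower. The library lay wholly above day 18 for 4 members and wholly below for 4, as it did for 38.5% and 41.0% of all genes. With 1 library the spread was borrowed from the other groups, and when only it and day 18 were fitted, no gene passed in edgeR, with 4113 genes at an unadjusted p under 0.05. Without MesoT day 18 replicate 1, the log2 fold changes of UPK3B and GPM6A were -4.94 and -5.75. Of the relatives MUC1 and UPK2, another uroplakin, were higher, by 2.55 ± 0.38 and 2.47 ± 0.52 log2 (edgeR, adjusted p = 0.0237 and 0.0427), and UPK2 lost its call without either day 18 replicate. Of the other mesothelial genes KRT19 and EZR were higher, by 2.85 ± 0.34 and 1.11 ± 0.23 log2 (EZR not without day 18 replicate 2), and WT1 and PKHD1L1 lower, the latter with a ratio of 0.0212 (95% exact counting interval 0.00434 to 0.0623).

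MesoT-derived MLC ask whether cells that had been MesoT take on the epithelial form when the medium is changed. They were compared with the 4 MesoT libraries of the human table. UPK3B, MSLN, LRRN4 and PDPN rose, and the other 5 genes did not pass. LRRN4 had 673 and 1151 CPM in MesoT-derived MLC, 133 and 106 CPM at MesoT day 18 and 52.6 and 91.3 CPM at day 22. It rose by 3.30 ± 0.32 log2, or 9.84-fold (edgeR, adjusted p = 0.0122). UPK3B had 174 and 326 CPM, against 19.4 and 42.5 CPM at day 18 and 22.1 and 40.4 CPM at day 22. Its rise was 3.01 ± 0.42 log2, or 8.04-fold (edgeR, adjusted p = 0.0204). Both MLC libraries thus lay several-fold above all 4 MesoT libraries for both genes.

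MSLN, the mesothelin gene, had 7.48 and 25.8 CPM, against 0.591 and 1.72 CPM at day 18 and 0.833 and 1.05 CPM at day 22. It rose by 3.99 ± 0.60 log2, or 15.9-fold (edgeR, adjusted p = 0.0217). PDPN had 277 and 394 CPM, against 88.3 and 70.9 CPM and 77.8 and 112 CPM, and rose by 1.95 ± 0.23 log2, or 3.85-fold (edgeR, adjusted p = 0.0160). Replicate 2 was the higher MesoT-derived MLC library for all 4 genes, from 1.42-fold for PDPN to 3.44-fold for MSLN. The groups stayed apart in spite of that spread.

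**Figure D4:**
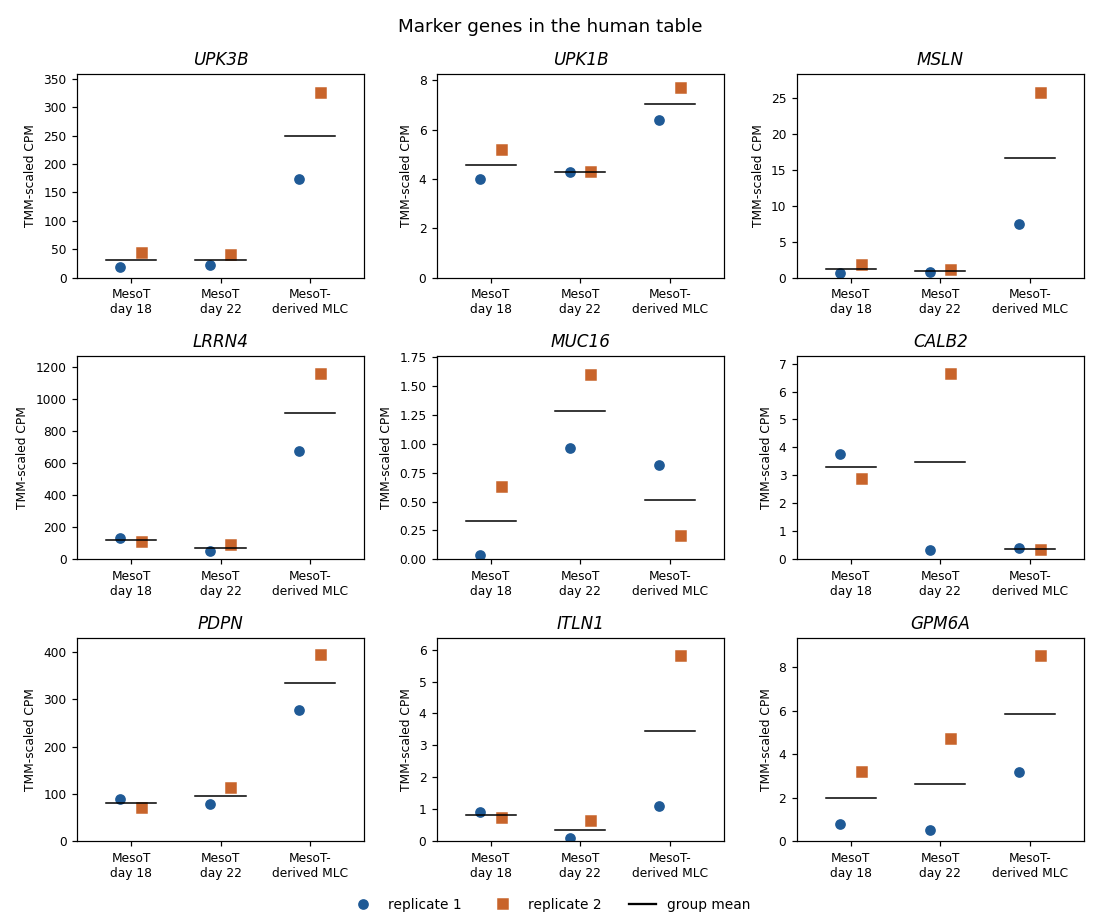
TMM-scaled CPM of the 9 genes (y axes, linear, 1 panel per gene) at MesoT day 18, MesoT day 22 and in MesoT-derived MLC (x axes), with points for libraries and bars for group means. Both MesoT-derived MLC libraries lie above all 4 MesoT libraries for UPK3B, UPK1B, MSLN, LRRN4, PDPN and ITLN1.

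The other 5 members went different ways. ITLN1 had 1.09 and 5.79 CPM in MesoT-derived MLC, 0.924 and 0.734 CPM at day 18 and 0.100 and 0.618 CPM at day 22. Its groups did not overlap, but the log2 fold change of 2.66 ± 0.79 did not pass (edgeR, adjusted p = 0.0837; DESeq2, adjusted p = 0.0158). UPK1B had 6.39 and 7.67 CPM against 3.99, 5.17, 4.27 and 4.29 CPM (0.67 ± 0.24 log2; edgeR, adjusted p = 0.121). GPM6A had 3.18 and 8.52 CPM, overlapping with 0.533 to 4.69 CPM in MesoT. MUC16, the partner of mesothelin, had 0.820 and 0.205 CPM, overlapping with 0.0370 to 1.60 CPM in MesoT. CALB2 was the one with its lowest group mean here, at 0.410 and 0.342 CPM, but MesoT day 22 replicate 1 had 0.333 CPM beside 2.86 to 6.61 CPM in the other 3 MesoT libraries. Its log2 fold change was -3.16 ± 1.17 (edgeR, adjusted p = 0.133; DESeq2, adjusted p = 0.0105).

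The 4 of 9 members called higher compare with 6.63% of all 22316 genes (9.94% in either direction), and the 6 wholly higher with 23.0%. No member lay wholly lower, where 23.4% of all genes did. Their median log2 fold change was 1.95, against -0.05 over all genes. The calls rest on few libraries. The 4 MesoT libraries may not be independent, since same-numbered replicates of the 2 days deviated together (r = 0.557). UPK3B did not pass against day 18 alone or day 22 alone (edgeR, adjusted p = 0.0551 and 0.0506). Nor did MSLN (edgeR, adjusted p = 0.0651 and 0.0548). LRRN4 and PDPN passed against each, among 380 and 612 genes. Without MesoT day 22 replicate 1, or without MesoT-derived MLC replicate 2, no gene of the table passed in edgeR (5608 and 3965 genes at an unadjusted p under 0.05). Without MesoT day 22 replicate 2, LRRN4 was the only member called, among 182 genes. With 1 library left out, the log2 fold changes of the 4 genes kept their sign. They ran from 2.87 to 3.64 for LRRN4, 2.49 to 3.40 for UPK3B, 2.84 to 4.63 for MSLN and 1.68 to 2.18 for PDPN. The lowest value of each came without MesoT-derived MLC replicate 2.

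Among family relatives, 3 passed higher and 1 lower of 14 tested. MUC13 had 668 and 3737 counts in MesoT-derived MLC and 1 count over the 4 MesoT libraries, a ratio of 8425 (95% exact counting interval 1511 to 332864). The gut epithelium markers summed to 16.9 and 73.9 CPM in MesoT-derived MLC and to 2.20 to 3.81 CPM in MesoT, with replicate 2 the higher for MUC13, ITLN1 and the sum. Their part was not tested. LRRN2 rose by 2.44 ± 0.23 and MUC1 by 1.40 ± 0.30 log2, and CALB1 fell by 2.79 ± 0.43 log2 (edgeR, adjusted p = 0.0122, 0.0424 and 0.0226). The MUC1 call was lost in 9 of 13 alternatives, among them all 6 fits with 1 library left out, and the CALB1 call in 5. Of 20 other mesothelial genes tested, 7 passed, all higher. CRB2 rose by 3.36 ± 0.35, BCAM, a laminin-binding adhesion protein, by 2.62 ± 0.38, WT1 by 2.46 ± 0.30 and PODXL, a surface sialomucin, by 2.32 ± 0.33 log2. PODXL lost its call in 6 of 13 alternatives, and WT1 and BCAM in 4 each.

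No difference in the markers was detected between MesoT at day 22 and at day 18. No gene passed in edgeR (0.0% of 22316), DESeq2 or limma voom, which had 171, 204 and 133 genes at an unadjusted p under 0.05. None of the 171 was a member. UPK3B differed by 0.01 ± 0.51 log2 and UPK1B by -0.10 ± 0.28. LRRN4 had its 2 day 22 values below both day 18 values (-0.73 ± 0.38 log2), as did ITLN1 (-1.22 ± 1.05), and MUC16 lay above (1.94 ± 1.06). WT1 differed by 0.80 ± 0.36 log2. Wholly higher genes made up 9.0% and wholly lower genes 8.71% of the table. For UPK3B, MSLN and GPM6A replicate 2 was the higher at both days, for GPM6A by 4.11-fold at day 18 and 8.79-fold at day 22. CALB2 turned instead: replicate 1 was 1.32-fold higher at day 18, and replicate 2 was 19.8-fold higher at day 22.

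Ordered by level, the 9 genes did not share 1 pattern across the one-library groups. UPK3B, LRRN4, MSLN, MUC16 and ITLN1 had their highest group mean in MLC, UPK1B, CALB2 and PDPN in the smooth muscle library and GPM6A at MesoT day 18. The order of UPK1B rests on one-library counts, which at day 18 were far below those of the human table. For UPK3B the order was MLC, day 18, smooth muscle and MesoT FCS, with no overlap between neighbours. For PDPN, MLC and day 18 overlapped, and for CALB2 MLC, day 18 and MesoT FCS did. For ITLN1, MLC and day 18 overlapped, as did MesoT FCS and smooth muscle. Of the 9 genes in the human table, 7 had their highest mean in MesoT-derived MLC, the exceptions being MUC16 and CALB2, highest at day 22.

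Likeness of pattern was measured by Pearson's r of log2 CPM over the 7 one-library files and over the 6 columns of the human table, among 8813 genes. These are descriptions: the points fall into few groups, and day 18 is in both sets. The genes most like UPK3B were FRMD4B (r = 0.98 and 0.99), PODXL (0.97 and 0.99) and DAPK1 (0.96 and 0.99). Those most like PDPN were PLEKHA7 (0.98 and 0.99), DTX4 (0.99 and 0.98) and LSR (0.98 and 0.96). MAGI3 came first for MSLN (0.95 and 0.99), SLC45A4 for LRRN4 (0.96 and 0.99), TET1 for MUC16 (0.95 and 0.99), IQSEC1 for UPK1B (0.98 and 0.93), HAPLN3 for CALB2 (0.95 and 0.94), ST6GALNAC3 for ITLN1 (0.94 and 0.94) and COQ8A for GPM6A (0.85 and 0.96). Between members, UPK3B and MSLN had r of 0.81 and 0.99 and UPK3B and ITLN1 0.93 and 0.79. UPK3B and UPK1B, both uroplakins, had -0.08 in the one-library files and 0.97 in the human table, the former with the day 18 counts of UPK1B described above. UPK3B and CALB2 had -0.16 and -0.54.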

How the data were processed

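Poly-A RNA libraries of 11 human samples were used. Each deposited value is a whole-number read count for 1 Ensembl gene ID. TopHat2 2.0.13, Bowtie2 2.2.9, Subread 1.4.2, featureCounts and MACS2 2.1.1 with the build hg19 are named, without roles, per the submitters' processing notes. Strand setting and annotation release: not given in the sources used here. Hence it is not known whether the counts keep reads of a gene apart from those of an antisense partner. UPK3BL1, a family relative of UPK3B, was listed at 0 in the 7 one-library files. Whether this bears on the UPK3B counts was not tested.

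edgeR 4.0.16 in R 4.3.3 was fitted to the counts (TMM scaling, genes kept by filterByExpr, quasi-likelihood test, p-values adjusted by Benjamini-Hochberg, threshold 0.05) over all 7 one-library files and, apart from them, over the 6 columns of the human table. Residual degrees of freedom were 3 in each. Standard errors come from the F statistic. A group with no count was given a floor of 3 counts over the group, and ratios on 1 to 3 counts a 95% exact counting interval; both cover counting error only. The MesoT reference for MesoT-derived MLC was the mean of both days.

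The members and lists were chosen with earlier results of these data known. All 9 members are named, with up to 4 called genes of smallest p per other list and comparison, always WT1, and the genes most alike by r, of which the first 1 to 3 are printed. ALDH1A2 and CDH2 in MLC against MesoT day 18 were added to these, as the genes of their list called lower there. Alternatives were RLE scaling, DESeq2 1.42.0, limma voom 3.58.1, no filter, a replicate block, only the groups compared, each library left out, the human table's day 18 counts and, added after seeing the data, the one-library fit without smooth muscle and MesoT-derived MLC against each day alone. The fitting script was tested on simulated data with the same spread for all genes. That test does not show error rates at the spread of these libraries.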

Additional observations from a re-analysis of the deposited data

How the results depend on the processing

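Counts of called members moved under these settings. For MLC against MesoT day 18 it was 1 when only those groups were fitted and 0 to 2 with 1 library left out, and the count of all genes was 9237 with the human table's day 18 counts and 1714 to 6601 with 1 library left out. For MesoT FCS against day 18, members numbered 6 in DESeq2, without the filter and with the human table's day 18 counts, and 3 to 5 with 1 library left out. All genes numbered 3253 with only those groups, 12757 with the human table's counts and 2783 to 7845 with 1 library left out. For MLC against MesoT FCS, leaving out 1 library gave 3 to 6 members and 4962 to 8507 genes. For smooth muscle, members numbered 6 in DESeq2, 5 without the filter, 0 with only the groups compared and 3 to 5 with 1 library left out, and all genes 4925, 2876, 0 and 2339 to 4292. With the human table's counts all genes numbered 7935. For MesoT-derived MLC, DESeq2 called 4604 genes, the fit against day 18 alone 380 (2 members), that against day 22 alone 612 (2 members), and leaving out 1 library gave 0 to 2995 genes and 0 to 4 members. The cause of these shifts was not tested. Fits with 1 library left out had 2 residual degrees of freedom, against 3 in the main fits.

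Directions turned mostly for values near 0. For MLC against day 18, ITLN1 was -0.027 in limma voom, -0.053 with the replicate block, -0.049 with only those groups, -0.28 without MLC replicate 1, -0.016 without day 18 replicate 2 and -0.017 without smooth muscle. CALB2 was -0.0041 with only those groups and -0.045 without day 18 replicate 2. With the human table's day 18 counts, in fits that mix the 2 sets, UPK1B was -1.76 for MLC and -4.00 for MesoT FCS, and MUC16 -0.37 for smooth muscle. MUC16 was -0.25 there without day 18 replicate 1. GPM6A in MLC against MesoT FCS was -0.11 without MLC replicate 2 and -0.20 without MesoT FCS replicate 1. MUC16 in MesoT-derived MLC was 1.17 without day 18 replicate 2, 0.33 without MesoT-derived MLC replicate 2 and 0.63 against day 18 alone. For day 22 against day 18, CALB2 was -1.16 in limma voom, -0.51 with the replicate block, -0.13 without day 18 replicate 2 and -3.30 without day 22 replicate 2. GPM6A was -0.021 in limma voom, -0.31 without day 18 replicate 1 and -1.88 without day 22 replicate 2. UPK3B was -0.45 and -0.48 without the same 2 libraries. Without day 18 replicate 2, UPK1B was 0.097 and MSLN 0.67, and PDPN was -0.032 without day 22 replicate 2. With 1 library left out, the other ends of these ranges were 0.26 for ITLN1 and 0.25 for CALB2 in MLC against day 18, 2.05 for GPM6A in MLC against MesoT FCS, 2.54 for MUC16 in smooth muscle, -1.64 for MUC16 in MesoT-derived MLC and, for day 22, 0.69 for UPK3B, -0.28 for UPK1B, -0.88 for MSLN, 0.99 for CALB2, 0.50 for PDPN and 1.73 for GPM6A. The cause was not tested.

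The labels give same-numbered replicates no shared source. Their deviations correlated at 0.0666, 0.073 and 0.0107 between one-library groups, at 0.557 between day 18 and day 22, where they deviated together, and at -0.0077 and -0.0636 between these and MesoT-derived MLC. With the replicate block, 2, 5, 6, 5 and 0 members were called for MLC against day 18, MesoT FCS against day 18, MLC against MesoT FCS, MesoT-derived MLC and day 22. In the same order, 4718, 5863 and 10614 of 20715 genes and 2800 and 0 of 22316 genes were called. For MLC against day 18, GPM6A came in (edgeR, adjusted p = 0.0326) and UPK1B was lost (0.0640). LRRN4 and GPM6A came in for MesoT FCS against day 18 (0.0339 and 0.0268) and GPM6A for MesoT-derived MLC (0.0493). The block fits of the one-library files left out smooth muscle. The block was not run for smooth muscle, and the fit of only the groups compared is the main one for MesoT-derived MLC.

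Depth limits MUC16, ITLN1, GPM6A, UPK1B and MSLN most, since each had groups with under 10 counts in all.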
